A study of Triticum aestivum with 6 samples.

Results

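The 124 gene IDs described here were barely detected in roots of wheat grown without a mycorrhizal fungus and were well expressed in every mycorrhizal root library. They were chosen by their values in the study's own comparison. Their highest value in control roots lay above 0 and at 0.5 FPKM or less, and their lowest value in mycorrhizal roots was at least 5 FPKM. FPKM is the number of fragments of a transcript divided by its length and by the size of the library, so levels can be compared between genes. Only IDs that begin with Traes_ or TRAES3BF entered, which are 100231 of the 114264 IDs in the table. Of the 128 that met both limits, 4 carried the same 6 values as another one and were left out.

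The libraries came from bread wheat roots (Triticum aestivum, cv. Chinese Spring), 3 of them from plants given arbuscular mycorrhizal inoculum (AM) and the other 3 from plants left non-mycorrhizal (NM). The fungus was Rhizophagus irregularis, per the series title. The sample titles say that a molecular signal was added for AM and none for NM. They do not say what the signal was, or whether it was anything apart from the inoculum. All plants were grown in pots of a steam-sterilized mixture of soil and quartz sand from surface-sterilized seed, and the plants' age is not given in the sources used here. About 100 mg of root went into each library, the paired reads were 150 bp long, and all libraries shared 1 lane. The 3 replicates of each treatment are called biological by the study. Without counts the depth behind an FPKM value is unknown, and no counting error could be given. Library sums over all IDs lay between 1136829 and 1193206 FPKM.

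In arbuscular mycorrhiza the fungus grows into the root cortex and forms branched arbuscules inside the plant's cells. The plant gains mineral nutrients, phosphate above all, and pays in sugars and lipids. In legumes and rice, a part of the plant's gene set is known to be transcribed almost only in cells that house the fungus. These genes include phosphate and ammonium transporters, enzymes and transporters of lipid export, secreted proteases and the GRAS transcription factors that switch them on. Bread wheat is a hexaploid and carries most genes in related copies, called homoeologues, on its A, B and D subgenomes. None of the deposited IDs (0 matches) was found among the 155467 genes of the reference table, so no member has a gene name or a known role here. Markers of the fungus, of root cell types and of mycorrhizal function could not be looked up for the same reason. An ID of the Traes_ kind states the chromosome arm, and a TRAES3BF ID states chromosome 3B with a scaffold number and a gene number.

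The combination was rare at both ends. Of 9896 Traes_ and TRAES3BF IDs with such a trace in NM roots, 6405 (64.7%) stayed at 0.5 FPKM or less in every AM library, 594 (6.00%) reached 1 FPKM in every AM library, and the 124 members (1.25%) reached 5. Of 25365 IDs that reached 5 FPKM in each AM library, 23776 (93.7%) also reached it somewhere in NM, 1300 peaked between 0.5 and 5 FPKM in NM, and 165 were listed at 0 throughout NM. No ID (0 of 95441) met the rule with AM and NM exchanged. This last count is a description, since the limits were set for the other direction.

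The members made up 0.145%, 0.199% and 0.297% of the summed FPKM in AM replicates 1, 2 and 3, and 0.00132%, 0.00128% and 0.00181% in NM replicates 1, 2 and 3. As sums these were 1701.02, 2331.37 and 3373.54 FPKM in AM, against 15.44, 15.24 and 21.06 FPKM in NM. The rule fixes this direction, so it was not tested. Per member the AM mean ran from 5.52 to 108.51 FPKM with a median of 14.3 and quartiles of 9.69 and 24.7. There were 37 members under 10 FPKM, 48 from 10 to under 20, 33 from 20 to under 50, and 6 at 50 or more. The ratio of AM mean to NM mean had a median of 171 and quartiles of 72.1 and 330, and it reached 100 in 81 members. These ratios divide by small NM values whose own error is unknown.

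**Figure D1:**
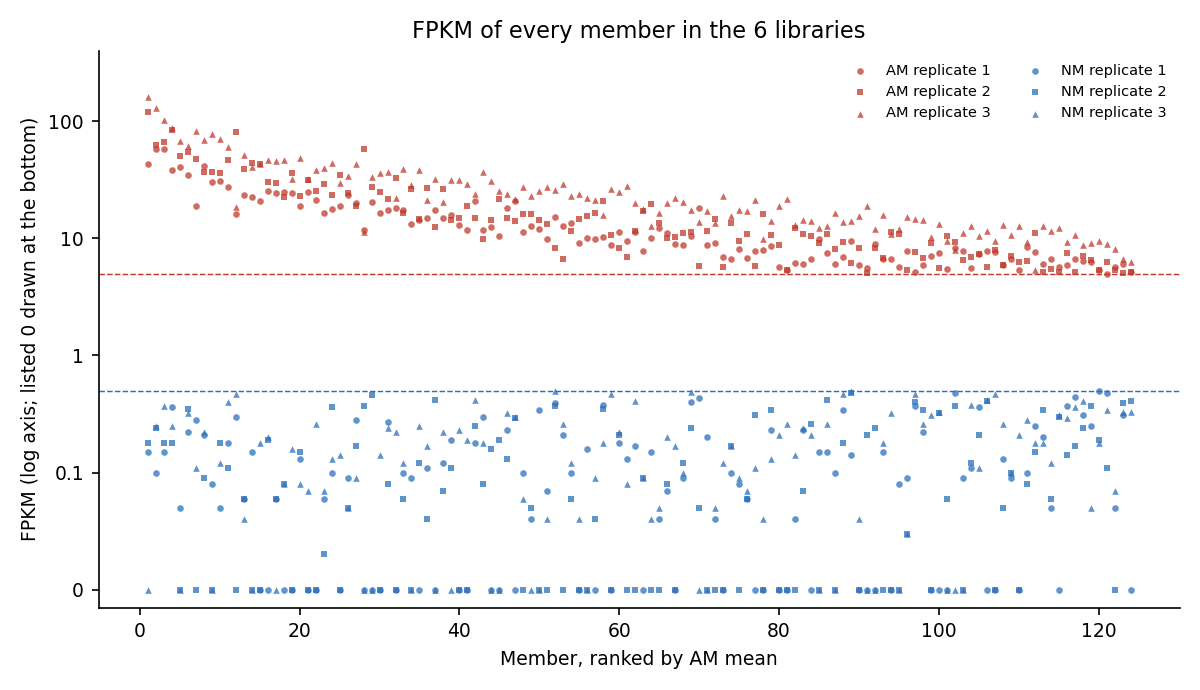
FPKM of all 124 members (log axis, a listed 0 drawn at the bottom), ranked by AM mean, with 1 point per library in red for AM and blue for NM; dashed lines mark the limits of 5 and 0.5 FPKM. The gap, the floor of the red points and the ceiling of the blue points come from the choice of members, and the slope from the ranking by AM mean, which runs from 108.51 to 5.52 FPKM.

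All 124 members also passed limma's test of AM against NM, fitted over the 64974 IDs that reached 1 FPKM in 3 or more libraries, with Benjamini-Hochberg adjustment and a threshold of 0.05. Over all tested IDs, 11.2% were called higher and 7.14% lower, and in 22.6% the lowest AM value lay above the highest NM value, as it does in all 124 members by their choice. Nothing is read from the members' count, because the test uses the contrast that chose them and they passed the filter through their AM values. On the log2(FPKM + 1) scale, where the change of a low value is compressed, the members' fold changes ran from 2.35 to 6.43 with a median of 3.67, against a median of 0.05 over all tested IDs. Their standard errors ran from 0.14 to 0.61.

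The most abundant members lay mostly on the B subgenome, in large part through TRAES3BF IDs. Of the 12 with the highest AM mean, 9 were on B chromosomes and 3 on A chromosomes. On 3B were 5 of the 9, all with TRAES3BF IDs, a naming that only 3B has. Of all 124 members, 49 (39.5%) were on B, against 34.2% of tested Traes_ and TRAES3BF IDs, and no difference was tested. No D member was among the leading ones (0 of 12), and the highest AM mean of a D member was 34.1 FPKM. These 12 held 25.8%, 31.1% and 29.3% of the members' summed FPKM in AM replicates 1, 2 and 3.

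TRAES3BF132300010CFD_g, on 3B, had the highest AM mean, with 42.78, 120.61 and 162.14 FPKM in AM replicates 1, 2 and 3, against 0.15, 0.18 and 0 FPKM in NM replicates 1, 2 and 3. Its AM mean of 108.51 ± 60.6 FPKM (SD, n = 3) rested mainly on replicates 2 and 3. Traes_7BL_2090E6665, on arm 7BL, followed with 58.32, 62.69 and 129.22 FPKM in AM, against 0.10, 0.24 and 0.25 FPKM in NM. In this member AM replicate 3 stood apart from the other two AM libraries.

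TRAES3BF058400070CFD_g had 57.69, 66.54 and 101.59 FPKM in AM, against 0.15, 0.18 and 0.37 FPKM in NM. TRAES3BF044200150CFD_g had 38.45, 84.39 and 87.86 FPKM in AM, against 0.36, 0.18 and 0.25 FPKM in NM. Both are 3B IDs on different scaffold numbers, and both were above 0 in every NM library. TRAES3BF048500020CFD_g had 40.35, 50.45 and 67.54 FPKM in AM, against 0.05, 0 and 0 FPKM in NM. Here the lowest AM value was 807 times the highest NM value, the widest gap among the 124 members.

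The remaining members of the leading 12 had AM means between 38.7 and 50.31 FPKM. Traes_6AS_F061F607E had 34.86, 54.68 and 61.39 FPKM in AM, against 0.22, 0.35 and 0.32 FPKM in NM. Traes_5BL_C4CA0822B had 18.90, 47.22 and 82.31 FPKM in AM, against 0.28, 0 and 0.11 FPKM in NM. In both, AM replicate 1 was the lowest of the AM libraries, by far in the 5BL ID. TRAES3BF048900150CFD_g had 41.81, 36.69 and 69.65 FPKM in AM, against 0.21, 0.09 and 0.22 FPKM in NM. Traes_2BS_480F818C8 had 30.53, 36.71 and 78.03 FPKM in AM, against 0.08, 0 and 0 FPKM in NM. Replicates 1 and 2 lay close together in both and replicate 3 well above them.

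Traes_7BL_B1236B1CC, the other 7BL member of this group, had 30.96, 36.22 and 70.16 FPKM in AM, against 0.05, 0.18 and 0.12 FPKM in NM. Traes_2AL_8747AE16A had 27.33, 47.02 and 59.81 FPKM in AM, against 0.18, 0.11 and 0.40 FPKM in NM. Of the 12, 11 were lowest in AM replicate 1 or 2 and highest in replicate 3, and the exception was Traes_6AS_A8FB7313F, described below with the members that varied most. With SDs between 13.7 and 60.6 FPKM, the order among these 12 is not resolved.

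At the lower end, Traes_7DL_061995FCA had 5.18, 5.15 and 6.24 FPKM in AM, against 0, 0.41 and 0.33 FPKM in NM. Traes_2AS_148383FB6 had 6.01, 5.02 and 6.65 FPKM in AM, against 0.31, 0.39 and 0.33 FPKM in NM, and its ratio of means, 17.2, was the smallest of all members. Traes_1DS_BC562BD53 had 5.64, 5.35 and 8.07 FPKM in AM, against 0.05, 0 and 0.07 FPKM in NM. A low AM level therefore came both with a relatively high trace and with almost none. Traes_2DL_B6C2E4A95 lay close to both limits, with 5, 6.24 and 8.88 FPKM in AM, against 0.48, 0.11 and 0.34 FPKM in NM.

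The limits cut through a continuous range. Just inside the NM limit, Traes_1AL_AEC103E02 peaked at 0.50 FPKM in NM, as did Traes_1DS_B686BC1E0 and TRAES3BF132100010CFD_g. Just outside it, Traes_3AS_769E90DDD and Traes_7AL_ACBB0F83B peaked at 0.51 FPKM and Traes_1AS_1D92F5FB5 at 0.53 FPKM, with lowest AM values of 5.45, 11.22 and 17.23 FPKM. Just inside the AM limit were Traes_2DL_B6C2E4A95 at 5 FPKM, Traes_2AS_148383FB6 at 5.02 and Traes_5DL_F84BF5205 at 5.10. Just outside it were Traes_4BS_CA13A99F9 at 4.96 FPKM, TRAES3BF037500020CFD_g at 4.95 and Traes_1BL_E5DE0E229 at 4.95.

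The trace in control roots was patchy. Of the 372 NM values, 112 (30.1%) were 0, and the values above 0 ran from 0.02 to 0.50 FPKM with a median of 0.18. There were 52 members above 0 in all 3 NM libraries, 32 in 2 of them and 40 in 1. Among all 9896 IDs with a trace in NM these shares were 50.6%, 26.0% and 23.4%, against 41.9%, 25.8% and 32.3% of the members. NM replicate 3 carried the trace most often, with 99 members above 0, against 83 in replicate 1 and 78 in replicate 2. It also held the single highest NM value in 62 members, against 32 for replicate 1 and 24 for replicate 2. Among all IDs with a trace, NM replicate 3 held the highest value in 34.7% and replicate 1 in 31.9%, and 74.8% were above 0 in NM replicate 3 against 78.3% in NM replicate 1.

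The trace was not larger in members with a higher AM level. Across the 124 members, Spearman's rho between AM mean and NM mean was -0.22, a description only, since the rule bounded both values. The NM mean was 0.586% of the AM mean in the median member, with quartiles of 0.303% and 1.39% and a range from 0.0316% to 5.83%. Members above 0 in 1 NM library had a median AM mean of 15.9 FPKM, those above 0 in 2 had 14.3, and those above 0 in all 3 had 13.2. Pairs of NM libraries were weakly ordered alike across members, with rho from 0.20 to 0.27, whereas pairs of AM libraries had rho from 0.73 to 0.83.

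**Figure D2:**
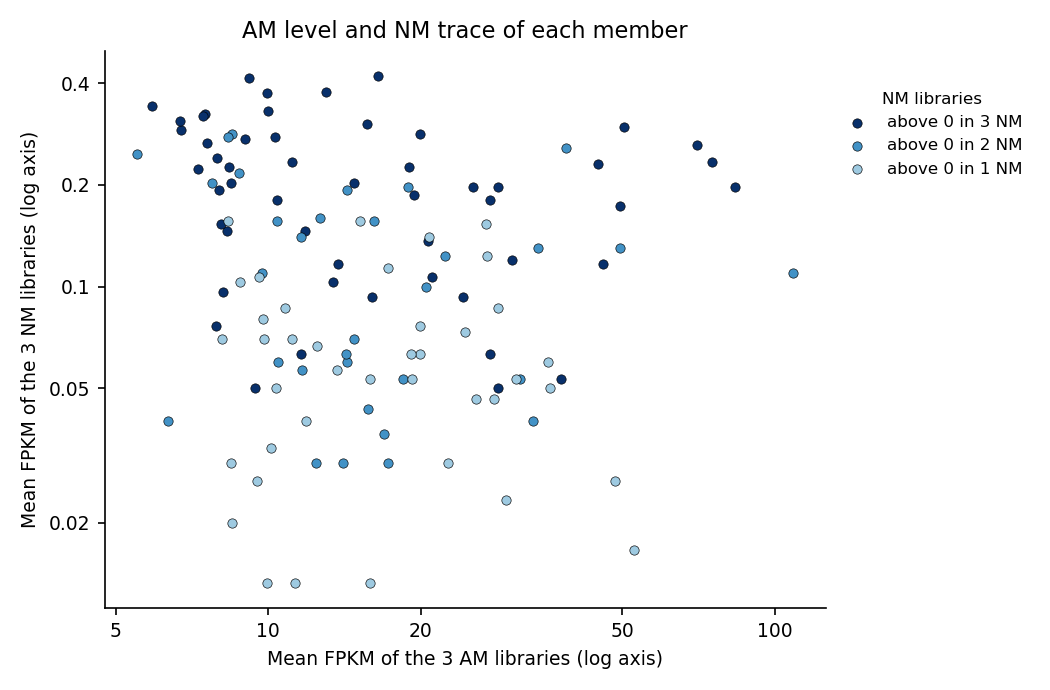
Mean FPKM of the 3 AM libraries (horizontal, log axis) and of the 3 NM libraries (vertical, log axis) for each of the 124 members, shaded by the number of NM libraries above 0. The points spread without an upward trend (rho -0.22), and the 5 members with the highest trace named in the text have AM means from 5.89 to 16.5 FPKM.

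The 5 members with the highest NM mean were picked among those above 0 in all 3 NM libraries. Traes_1AL_AEC103E02 led with 15.25, 8.24 and 26.03 FPKM in AM, against 0.39, 0.37 and 0.50 FPKM in NM. Traes_5DL_C46613B9F had 5.21, 7.72 and 14.53 FPKM in AM, against 0.37, 0.40 and 0.47 FPKM in NM. The NM values of both lay close together, which follows from picking high NM means under the limit of 0.5 FPKM. Traes_7AL_979B94E75 had 10.44, 11.25 and 17.38 FPKM in AM, against 0.40, 0.24 and 0.49 FPKM in NM. Traes_1DS_B686BC1E0 had 9.58, 6.22 and 14.04 FPKM in AM, against 0.14, 0.48 and 0.50 FPKM in NM. The fifth was Traes_2AS_148383FB6, whose values were given above. Their NM means lay between 0.343 and 0.42 FPKM.

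The AM libraries were not equal for these IDs. The median member stood at 9.99 FPKM in AM1, the first AM replicate, at 11.5 in AM2 and at 20.5 in AM3. AM replicate 3 was the highest in 106 of the 124 members, replicate 2 in 17 and replicate 1 in 1, and replicate 1 was the lowest in 86. The median ratio of AM replicate 3 to replicate 1 was 1.91 among members, against 0.983 over the 53437 tested Traes_ and TRAES3BF IDs. Among the 5970 such IDs called higher the ratio was 1.26, and AM replicate 3 was the highest in 63.2%. In the sets most like the members it was 1.86 (165 IDs listed at 0 throughout NM) and 1.65 (231 IDs with a higher NM level), so the rise was not particular to the members. No difference between these sets was tested. With AM replicate 3 left out, the median AM mean was 11.5 FPKM, against 14.3 FPKM with all 3. In bulk roots, more colonized cells and more RNA per cell cannot be told apart, and the degree of colonization per sample is not given in the sources used here.

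The highest AM value exceeded the lowest by a median of 2.13 times, by at least 1.5 times in 109 members and by at least 3 times in 15. A pair of neighbouring sets is given for scale, without a test. Among the 165 IDs that reached 5 FPKM in each AM library with 0 throughout NM, the median ratio was 2.34, and AM replicate 3 was the highest in 63.0%. Among 231 IDs above 0.5 FPKM in NM whose lowest AM value was over 8 times their highest NM value, it was 1.89, and AM replicate 3 was the highest in 76.6%.

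**Figure D3:**
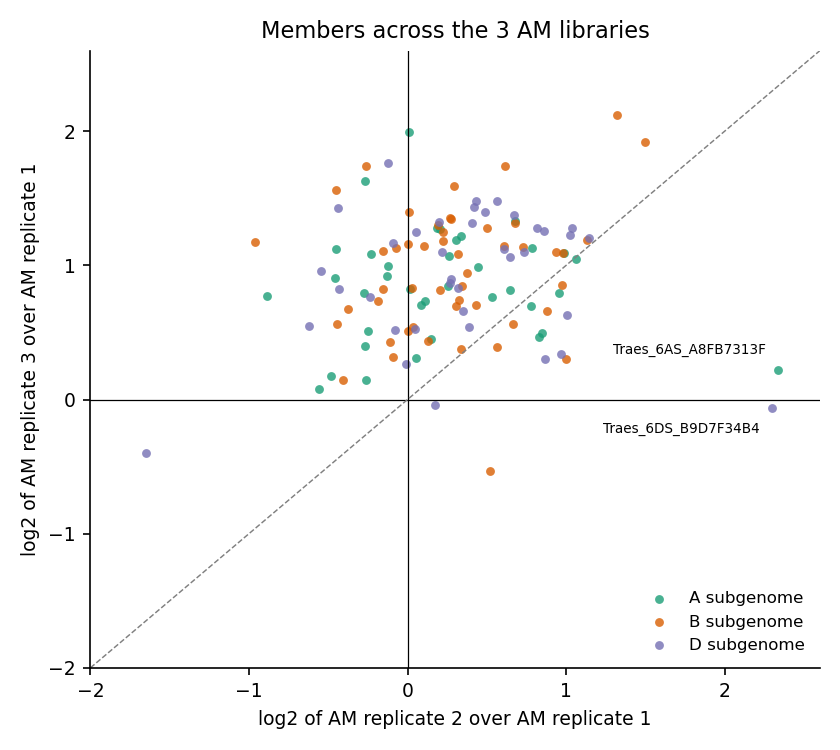
Each of the 124 members by its log2 ratio AM2/AM1 (horizontal) and AM3/AM1 (vertical), where the digit is the AM replicate, coloured by subgenome; points above the dashed line are higher in replicate 3 than in replicate 2. Most points lie above the line (106 members are highest in AM replicate 3), and the 6AS and 6DS members at the right stand apart.

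A pair of members on the short arms of group 6 departed most from this order. Traes_6DS_B9D7F34B4 had 11.79, 58.13 and 11.28 FPKM in AM, against 0, 0.37 and 0 FPKM in NM. Traes_6AS_A8FB7313F had 16.07, 81.31 and 18.68 FPKM in AM, against 0.30, 0 and 0.47 FPKM in NM. In both, AM replicate 2 lay over 4 times above the other AM libraries, by 4.93 and 4.35 times the next one, and the highest exceeded the lowest by 5.15 and 5.06 times. The other 5 members on group 6 chromosomes were highest in AM replicate 3. The other 15 members that were highest in AM replicate 2 exceeded the next library by less than 2 times.

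The next largest spreads ran in other directions. Traes_1BS_6B5A4BA2F had 12.86, 6.61 and 29.04 FPKM in AM, against 0.21, 0 and 0.26 FPKM in NM. Traes_5BS_9A95DE723 had 9.47, 6.92 and 27.90 FPKM in AM, against 0.13, 0 and 0.08 FPKM in NM. In both, AM replicate 2 was the lowest and replicate 3 the highest, while Traes_5BL_C4CA0822B, with the fourth largest spread, was lowest in replicate 1. The single member highest in AM replicate 1 was Traes_7DL_3744030D2, with 18.27, 5.83 and 13.88 FPKM in AM, against 0.43, 0.05 and 0 FPKM in NM.

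The most even members were mostly low ones. Traes_7DL_DEAB90162 had 8.20, 9.26 and 7.96 FPKM in AM, against 0.48, 0.37 and 0 FPKM in NM. Traes_7AL_7AE3D8273 had 7.62, 7.91 and 9.42 FPKM in AM, against 0, 0 and 0.47 FPKM in NM. Traes_7DL_061995FCA, given above, was as even. Traes_5BL_DF8D1B819 joined evenness with a high level, at 24.82, 31.33 and 32.29 FPKM in AM, against 0, 0 and 0.07 FPKM in NM. The fifth was Traes_2AS_148383FB6.

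Each library was also used in turn as one that had no say in the choice. IDs that met the rule on the other 5 libraries were read in the library left out. Those inside the limit there are the members again by construction, so they are not a separate recovery. Only the number of IDs beyond the limit and their values are new. Of 156 IDs chosen without AM replicate 1, 124 reached 5 FPKM there (79.5%), and the lowest had 2.21 FPKM. Without AM replicate 2 it was 124 of 135 (91.9%, lowest 1.85 FPKM), and without AM replicate 3 it was 124 of 125 (99.2%, lowest 3.61 FPKM). No left-out AM value was 0.

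On the NM side, of 142 IDs chosen without NM replicate 1, 113 stayed at 0.5 FPKM or less there (79.6%). The figures were 116 of 128 without NM replicate 2 (90.6%) and 103 of 135 without NM replicate 3 (76.3%). The IDs within the limit are again members, without those whose only trace was in the library left out. Of the IDs beyond the limit, 28, 12 and 30 lay between 0.5 and 5 FPKM in NM replicates 1, 2 and 3, and 3 reached 5 FPKM. These 3 were Traes_3AS_5A54F74A0 at 5.14 FPKM in NM replicate 1, TRAES3BF043600090CFD_g at 5.72 in NM replicate 3 and Traes_5DL_43D95A3FE at 15.94 in NM replicate 3.

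**Figure D4:**
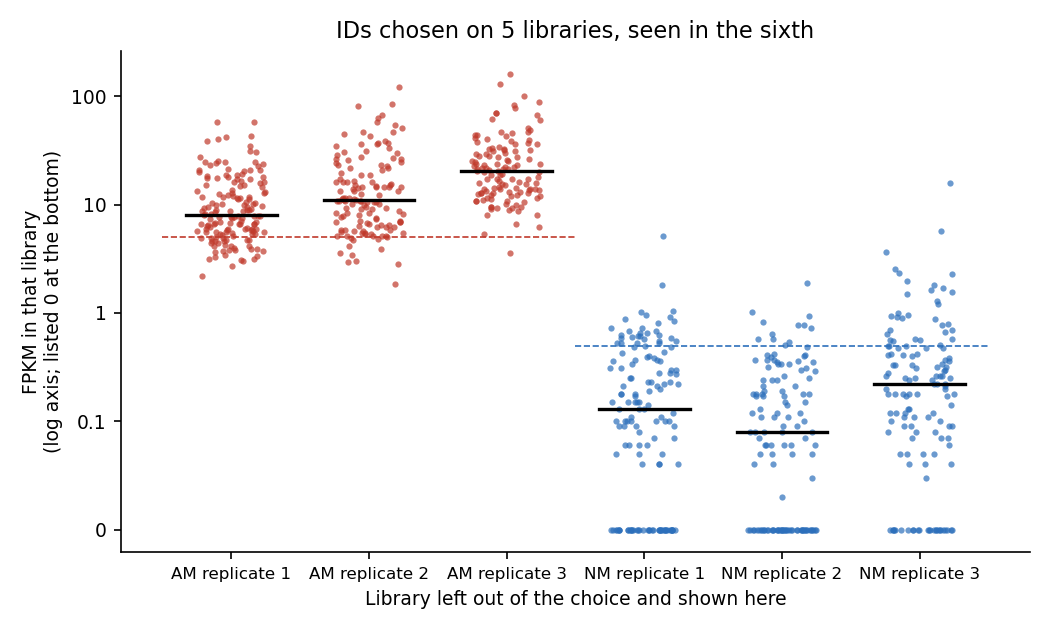
FPKM (log axis, a listed 0 at the bottom) of IDs that met the rule on 5 libraries, shown in the sixth, with AM libraries in red, NM libraries in blue, black bars for medians and dashed lines for the limits of 5 and 0.5 FPKM. The medians are 8.08, 11.0 and 20.5 FPKM in AM replicates 1, 2 and 3, against 0.13, 0.08 and 0.22 FPKM in NM replicates 1, 2 and 3. Points inside the limits are the members themselves by construction.

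By the chromosome in the ID, subgenome A held 37 members, subgenome B 49 and subgenome D 38. Of the 14 members on 3B, 11 carry the separate TRAES3BF naming. Without TRAES3BF IDs, B held 38 of 113 members (33.6%), against 30.8% of tested IDs named that way, while A held 37 and D 38. Of the 12 arm names outside group 3, 9 had members on all 3 subgenomes. The count was made for members only, so whether it is unusual was not tested. Arm 2L had 8, 8 and 7 members on A, B and D, and arm 5L had 3, 6 and 5. Arms 1S (1, 7 and 4) and 7L (2, 3 and 6) were less even. Medians of the AM mean were 14.3 FPKM for A, 17.2 for B and 11.7 for D members, with ranges of 5.89 to 50.31, 6.74 to 108.51 and 5.52 to 34.1 FPKM. The B values include the 11 TRAES3BF members, of which 5 were among the 12 with the highest AM mean.

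Group 2 chromosomes held 35 members (28.2%), against 28.1% of the 231 IDs with a higher NM level, 20% of the 165 IDs listed at 0 in NM, 21.7% of IDs called higher and 18.2% of tested IDs. Group 4 held 8.87% of members, against 12.1% of the 231 IDs, 7.88% of the 165 IDs and 14.3% of tested IDs. Group 6 held 5.65% of members, against 6.93% of the 231 IDs, 9.70% of the 165 IDs and 11.6% of tested IDs. In the 231 and the 165 IDs, too, groups 4 and 6 lay below tested IDs and group 2 above, though by little on group 2 in the 165 IDs. Among IDs called higher, groups 4 and 6 held 12.7% and 11.2%, the latter near the share of tested IDs. Chromosome 3B held 11.3% of members, against 5.72% of tested IDs, 6.49% of the 231 IDs with a higher NM level and 4.85% of the 165 IDs listed at 0 in NM. These shares were not tested, and related copies of a gene count more than once in them.

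**Figure D5:**
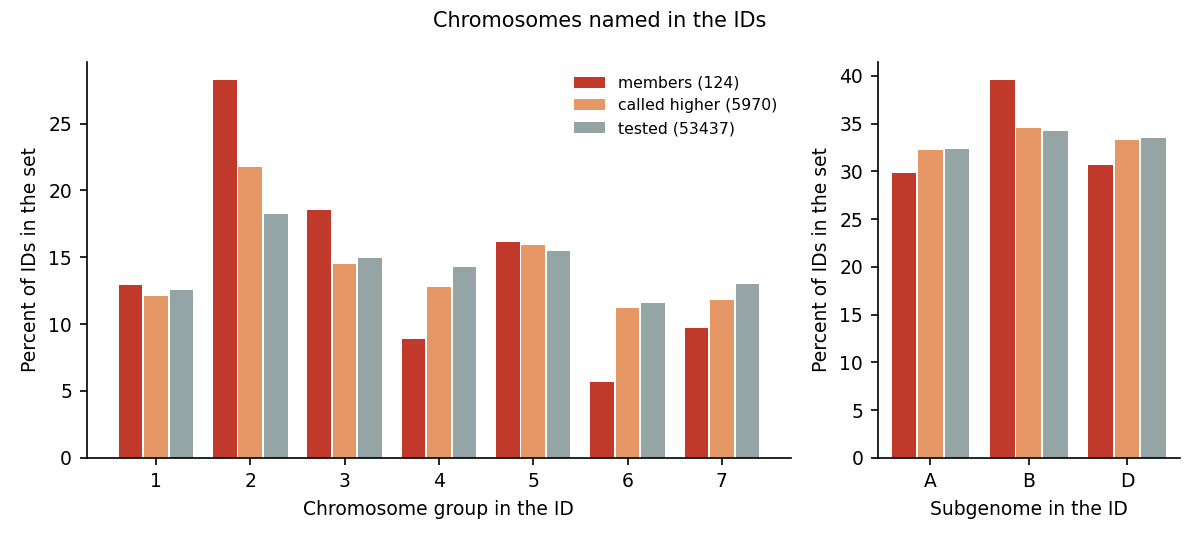
Percent of IDs by chromosome group (left) and subgenome (right) for the 124 members, the 5970 Traes_ and TRAES3BF IDs called higher, and the 53437 tested ones; bars start at 0. Members exceed tested IDs on group 2 (28.2% against 18.2%) and on the B subgenome, and fall below them on groups 4 and 6.

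The numbering of TRAES3BF IDs gives the other IDs of the same scaffold number, which the choice of members did not use. The 11 TRAES3BF members lay on 11 different scaffold numbers with 109 other IDs, of which 57 were tested. In limma's fit over all IDs, 10 of the 57 (17.5%) were called higher and 4 lower, against 13.7% called higher among all 2774 tested TRAES3BF IDs. The share lay near that background, and single scaffolds differed.

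On scaffold number 0944, the member TRAES3BF094400090CFD_g had 19.87, 18.86 and 43.50 FPKM in AM, against 0.28, 0.17 and 0.09 FPKM in NM. The next ID, TRAES3BF094400100CFD_g, had 4.69, 7.95 and 10.53 FPKM in AM, against 0.13, 0.12 and 0.25 FPKM in NM, so that it missed the AM limit in replicate 1 alone. It rose by 2.85 ± 0.26 on the log2(FPKM + 1) scale (SE, adjusted p = 0.00149, limma). TRAES3BF094400050CFD_g, on the same scaffold number, rose as well, with 54.84, 65.15 and 55.08 FPKM in AM, against 7.82, 12.30 and 17.40 FPKM in NM (log2 fold change 2.19 ± 0.27, adjusted p = 0.00357, limma). The ID just before the member, TRAES3BF094400080CFD_g, was not called, with 9.59, 9.17 and 9.69 FPKM in AM, against 10.59, 10.53 and 11.80 FPKM in NM (adjusted p = 0.294, limma).

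Scaffold numbers 0442 and 0489 carried further IDs of this kind, apart from the member by several numbers. Most other tested IDs on these scaffold numbers were not called. TRAES3BF044200180CFD_g had 11.38, 19.36 and 15.21 FPKM in AM and was listed at 0 in every NM library (adjusted p = 0.00027, limma). TRAES3BF048900220CFD_g had 21.84, 44.95 and 33.67 FPKM in AM, against 0.61, 0.27 and 0.36 FPKM in NM (log2 fold change 4.56 ± 0.27, adjusted p = 0.000379, limma). It passed the NM limit in replicate 1 only. Next to the 0489 member, TRAES3BF048900140CFD_g fell, with 13.21, 10.17 and 6.11 FPKM in AM, against 41.45, 24.97 and 35.27 FPKM in NM (log2 fold change -1.72 ± 0.30, adjusted p = 0.0115, limma). On 0489, TRAES3BF048900090CFD_g and TRAES3BF048900100CFD_g were called lower as well (log2 fold changes -1.17 and -1.02, adjusted p = 0.0162 and 0.0433, limma). Scaffold number 0489 thus held more IDs called lower than higher besides its member.

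Beside TRAES3BF048500020CFD_g, the preceding ID TRAES3BF048500010CFD_g rose by 0.90 ± 0.21 on the log2(FPKM + 1) scale (SE, adjusted p = 0.0319, limma). It had 22.54, 25.99 and 35.93 FPKM in AM, against 12.24, 13.67 and 17.56 FPKM in NM. This call was lost in 4 of 10 alternative fits, whose adjusted p ran from 0.0138 to 0.108. The ID after the most abundant member, TRAES3BF132300020CFD_g, did not reach the filter, with 0, 0 and 0.62 FPKM in AM, against 0.46, 0.79 and 0.69 FPKM in NM. Of the 17 IDs next to a TRAES3BF member, 9 were tested, 2 were called higher and 1 lower.

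The 4 IDs dropped for identical values were TRAES3BF103500040CFD_g, a copy of TRAES3BF100900010CFD_g on another scaffold number, and a second ID each for Traes_1BS_C035089E3, Traes_3DL_94539BFE9 and Traes_7DL_3744030D2. TRAES3BF100900010CFD_g had 7.69, 11.01 and 5.32 FPKM in AM, against 0.25, 0.15 and 0.18 FPKM in NM. How the reads of near-identical copies were shared out is not given in the sources used here, so its level is uncertain.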

How the data were processed

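The 124 members and all lists were chosen with earlier results of these data known. Per the file headers, the authors deposited FPKM values, rounded to 2 decimals, in 6 library columns, of which 0 went unused. The submitters' processing notes list TopHat2, Cufflinks, RSEM and edgeR but say neither their roles nor their versions, and the build and annotation behind the IDs are not given. The 64974 IDs that reached 1 FPKM in 3 or more libraries were compared, AM against NM, on log2(FPKM + 1). This was done by limma 3.58.1 in R 4.3.3 with its trend option, p-values being adjusted by Benjamini-Hochberg over all these IDs. The step was tested on simulated data, with changes added only to well-expressed IDs. IDs near 0 in NM, like the members, were not covered by that test. Fold changes are AM over NM. Counts and tables were made with Python 3.11.15 and pandas 2.3.3. Named members were the 12 highest and 4 lowest by AM mean, and the 5 with the largest and the 5 with the smallest AM spread. To these came the 5 with the highest NM mean among members above 0 in all 3 NM libraries, and the 3 on each side of each limit. Others are marked in the text or stood beside a member. 3 against 3 libraries cannot give an exact permutation p under 0.1. No pathway list could be matched to the IDs.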

Additional observations from a re-analysis of the deposited data

How the results depend on the processing

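The members' number followed its limits: 70 at an NM limit of 0.25 FPKM, 228 at 1 FPKM, 255 at an AM limit of 2.5 FPKM, 57 at 10 FPKM, and 125 to 156 with 1 library left out. Rescaling, keeping identical IDs or adding XLOC loci kept it within 1.5 times of 124. Their mean summed FPKM in AM, 2469, became 1509 or 4402 at those NM limits. The median ratio of highest to lowest AM value, 2.13, ran from 1.30 (without AM replicate 3) to 1.91 with 1 AM library left out, where the ratio then spans 2 libraries. All 124 members stayed called higher in the 10 alternative fits, which share the contrast that chose them. Over all IDs, leaving out 1 library gave 4089 to 6065 calls higher and 2124 to 4071 lower, against 7272 and 4637. The low counts were 4240 and 2283 without NM replicate 1, 4089 and 2124 without NM replicate 2, and 2983 lower without AM replicate 3. A replicate block by number gave 6323 higher and 4094 lower. Same-numbered libraries correlated at 0.124, 0.0708 and 0.0437 in their deviations from the group means, each library's best match, which is only a hint since 1 of these passes 0.1. Of IDs on the members' scaffold numbers, 9 were called higher under the block and 7 to 9 with 1 library left out, against 10. The cause of these shifts was not tested. What depth limits cannot be told without counts, least of all for the low NM values. The neighbour fits and the left-out-library readings were added after the data were seen.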

Other observations

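XLOC loci, the prefix Cufflinks gives to loci, hold further transcripts of this kind. Under the same limits 38 XLOC loci qualified, with medians of 11.5, 12.3 and 21.9 FPKM in AM replicates 1, 2 and 3, and 34 of them were highest in AM replicate 3.

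IDs that were high in a single AM library were unevenly placed. The list was formed after the data were seen, as Traes_ and TRAES3BF IDs at 1 FPKM or less in every NM library and 5 FPKM or more in every AM library, which were 393. In 12 of them AM replicate 2 reached at least 3 times both other AM libraries, and 8 of these 12 were on group 6 chromosomes, which held 32 of the 393. The members Traes_6AS_A8FB7313F and Traes_6DS_B9D7F34B4 are among them. So is Traes_6BS_953D204B8, with 5.83, 33.73 and 7.10 FPKM in AM, against 0, 0.64 and 0.33 FPKM in NM. Traes_6DS_FB2A01E4C had 13.43, 61.47 and 14.41 FPKM in AM and was listed at 0 in every NM library.

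In 13 of the 393, AM replicate 3 reached at least 3 times both others, and 7 of these were on arms 2AS, 2BS and 2DS, which held 39 of the 393. None of the 13 (0) was on group 6, and none of the 12 (0) was on those arms. Traes_2AS_846670D57 had 5.39, 5.42 and 21.52 FPKM in AM, against 0, 0 and 0.26 FPKM in NM. Traes_2BS_134EB58B8 had 6.87, 5.72 and 22.98 FPKM in AM, against 0, 0 and 0.12 FPKM in NM. AM replicate 1 stood above the others in this way in no ID (0 of 393). These counts were not tested, and copies of 1 gene on several chromosomes would count more than once.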
